A study of Mus musculus with 5 samples.

Results

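Arginine sits at a fork of macrophage metabolism, and 10 genes of that fork were followed in cultured mouse macrophages of 2 genotypes. The genes were chosen by name: the transporters Slc7a1 and Slc7a2, the nitric oxide synthase Nos2, the arginases Arg1 and Arg2, the arginine-rebuilding enzymes Ass1 and Asl, and the polyamine enzymes Odc1, Srm and Sat1. All 10 were found among the 20581 gene symbols of the deposited count table, and all 10 passed the filter on low counts that left 13339 genes for testing. Where a gene had several transcript rows, the row with the highest mean count stood for it.

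Messenger RNA came from bone marrow-derived macrophages, the phagocytes that grow from bone marrow cells under the growth factor M-CSF, here 25 ng/ml for 7 days. The mice had a C57BL/6 background and were 7 to 8 weeks old. The wild type group had 3 libraries, numbered 1, 2 and 3, and the NICcA group had 2, numbered 2 and 3. The labels do not spell out NICcA; elsewhere the name is used for mice with conditional expression of a Notch intracellular domain, which acts in the nucleus. The promoter or Cre that would drive it, and whether cultures were pooled or came from separate animals, are not stated in the sources at hand, so the replicate spread behind each p-value may be technical only. No stimulus of nitric oxide synthesis, such as interferon gamma or bacterial lipopolysaccharide, is named in the labels.

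In a macrophage, arginine enters through cationic amino acid transporters. Nos2 turns it into nitric oxide and citrulline, and is the classical product of activation by interferon gamma and bacterial products. Arginase turns the same substrate into urea and ornithine, and Arg1 is the classical product of activation by interleukin-4 and interleukin-13. Ass1 and Asl rebuild arginine from citrulline. Odc1 makes the polyamine putrescine from ornithine, Srm extends it to spermidine, and Sat1 acetylates spermidine and spermine for export or breakdown.

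Total counts per library, summed over all transcript rows, were 57442309 to 76562905. Rows of the same gene can hold the same reads, so these sums, which also scale the CPM, are not totals of distinct reads. The Notch target genes Hes1 and Nrarp, used as a check of the labels, stood above every wild type value in both NICcA libraries, and neither passed edgeR's adjustment (adjusted p of 0.13 and 0.28). Hes1 was at 0.0174, 0.0682 and 0.0911 CPM (counts scaled to a common library size) in wild type against 2.77 and 1.73 CPM in NICcA, and Nrarp was at 0.0694, 0.246 and 0.137 CPM against 0.778 and 0.679 CPM. Notch1 was at 67.4 to 78.5 CPM in wild type and 84.2 and 87.6 CPM in NICcA. Macrophage markers dominated every library: 9 markers, led by Lyz2, summed to 13807 to 20300 CPM in wild type and to 11938 and 12509 CPM in NICcA replicates 2 and 3. Lyz2 carried most of each sum, at 11521, 14308 and 17517 CPM in wild type and 9302 and 10411 CPM in NICcA. Marker sums of other cell types were small beside the macrophage sums. Across the libraries, T cell markers summed to 0.804 to 2.93 CPM, B cell markers to 0.416 to 1.002 CPM and erythroid markers to 0.505 to 0.868 CPM. Granulocyte markers summed to 54.7 to 104 CPM in wild type and 110 and 127 CPM in NICcA. Mast cell, basophil and eosinophil markers summed to 3.66 to 14.0 CPM in wild type and 28.7 and 23.9 CPM in NICcA. Dendritic cell markers, led by Itgax, which macrophages also express, summed to 723 to 923 CPM in wild type and 1007 and 663 CPM in NICcA. NICcA replicate 2 stood apart: among 9800 genes reaching 5 CPM in some library, 58 (0.592%) were more than 4-fold above every other library there, against 3, 0 and 3 in wild type replicates 1, 2 and 3 and 0 in NICcA replicate 3. For the general-purpose genes Actb and Gapdh, the log2 fold changes were 0.35 (SE 0.16) and 0.44 (SE 0.18), with edgeR adjusted p of 0.36 and 0.35.

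The question of the comparison is which genes of arginine use differ between NICcA and wild type macrophages. None of the 10 passed edgeR's quasi-likelihood test after Benjamini-Hochberg adjustment over all rows, where 0.03% of genes did (4 of 13339). The adjusted p of the members ran from 0.29 to 0.87. At an unadjusted p below 0.05 there were 5 members, namely Sat1, Odc1, Slc7a1, Arg2 and Srm, where 14.5% of all genes lay (7.68% higher and 6.83% lower in NICcA). The groups did not overlap for the same 5 genes, with Odc1, Srm and Slc7a1 higher in NICcA and Sat1 and Arg2 lower, where 36.8% of all genes did not overlap (18.4% higher and 18.5% lower in NICcA). DESeq2 called 1 member, Sat1, lower (adjusted p = 0.011), where it called 4.03% of genes (2.09% higher and 1.94% lower). The median log2 fold change was 0.26 over the members and 0.00 over all genes. Without NICcA replicate 2, 0 members had an unadjusted p below 0.05 in edgeR, where 4.13% of all genes did. The remaining 5 members, Nos2, Arg1, Ass1, Asl and Slc7a2, overlapped between the groups.

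**Figure D1:**
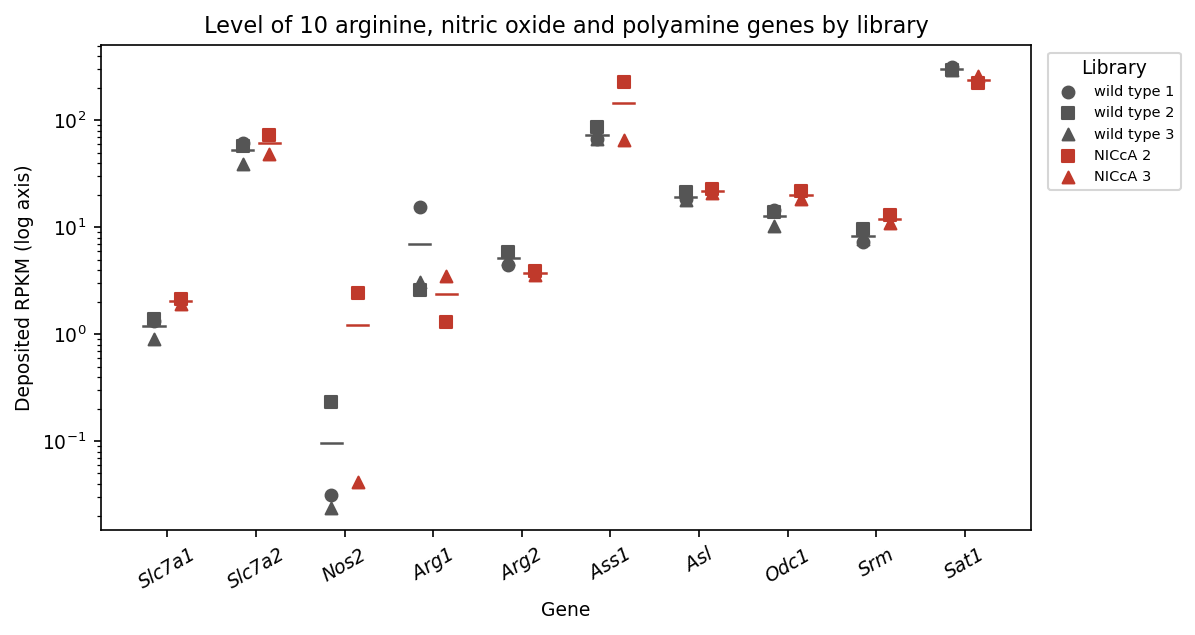
Deposited RPKM (reads scaled to transcript length and library size, log axis) of the 10 genes in each library, with wild type in grey, NICcA in red, the replicate number as the symbol and group means as short lines. Sat1 is the highest in every library except NICcA replicate 2, where Ass1 stands slightly above it, and Nos2 spans the widest range.

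Per transcript length, the 10 genes covered more than 3 orders of magnitude in wild type. Sat1 was the most abundant at 301 ± 11.5 RPKM (mean ± SD, with n = 3 for wild type and n = 2 for NICcA in all that follows). Ass1 followed at 73.3 ± 11.7 RPKM, Slc7a2 at 52.7 ± 11.9 RPKM, Asl at 19.2 ± 1.86 RPKM and Odc1 at 12.8 ± 2.19 RPKM, each neighbour's range lying apart from the next. Srm at 8.26 ± 1.21 RPKM lay apart from and above Arg2 at 5.13 ± 0.744 RPKM, while Arg1 at 7.04 ± 7.28 RPKM could not be placed, because its range overlapped both and that of Odc1. Slc7a1 was at 1.21 ± 0.269 RPKM and Nos2 was last at 0.0955 ± 0.118 RPKM. Slc7a2, Ass1 and Asl, which take up and rebuild arginine, were above Nos2, Arg1 and Arg2, which consume it, in each wild type library. In NICcA the same genes led in mean level (Sat1 at 241 ± 25.5, Ass1 at 147 ± 114 and Slc7a2 at 60.9 ± 17.5 RPKM), but the ranges of Sat1 and Ass1 overlapped, as did those of Ass1 and Slc7a2.

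Uptake comes first. Slc7a2, the transporter tied to arginine supply for nitric oxide and arginase in macrophages, was at 580, 575 and 387 CPM in the wild type libraries 1, 2 and 3 and 662 and 436 CPM in the NICcA libraries 2 and 3. The libraries of both genotypes interleaved, and the log2 fold change was 0.10 (SE 0.25, edgeR adjusted p = 0.87). It turned negative without NICcA replicate 2 (-0.24) or without wild type replicate 3 (-0.07). Slc7a2 has 2 RefSeq rows, and the second carried 98.1% to 98.8% of the count of the first in every library, so these counts do not separate its isoforms.

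Slc7a1, the broadly expressed arginine transporter, was at 11.9, 12.8 and 8.32 CPM in the wild type libraries and 18.1 and 16.1 CPM in the NICcA libraries. Both NICcA libraries lay above all wild type libraries, and wild type replicate 3 was the lowest. The log2 fold change was 0.64 (SE 0.21, edgeR adjusted p = 0.31), and it stayed between 0.46 and 0.76 over all alternatives. In RPKM, Slc7a2 exceeded Slc7a1 by 45.7, 41.8 and 43.4 times in wild type and by 34.1 and 25.3 times in NICcA.

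Nos2 was low in 4 of the 5 libraries. Its counts were 9, 87 and 8 in wild type replicates 1, 2 and 3 and 759 and 14 in NICcA replicates 2 and 3, which are 0.156, 1.19 and 0.121 CPM against 11.4 and 0.194 CPM. NICcA replicate 2 was 9.56 times the next library, wild type replicate 2, while NICcA replicate 3 lay among wild type replicates. The log2 fold change of 3.53 (SE 1.55, edgeR adjusted p = 0.36) rested on that library: without it, the value was -1.34 (SE 1.57, adjusted p = 0.92). Even in NICcA replicate 2 the level was 2.42 RPKM, below every polyamine and arginine-rebuilding member in that library.

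Of the genes that act with Nos2, Ass1 and Gch1 were high in the same library, and Asl and the cofactor genes Pts and Qdpr were not. Ass1, which joins citrulline to aspartate in the step that limits arginine rebuilding, was at 134, 182 and 140 CPM in the wild type libraries and 436 and 126 CPM in the NICcA libraries. NICcA replicate 2 was 2.39 times the next library, and NICcA replicate 3 was the lowest of all 5. The log2 fold change was 0.89 (SE 0.48, edgeR adjusted p = 0.41), and it was -0.27 (SE 0.23, adjusted p = 0.90) without NICcA replicate 2 and 1.52 (SE 0.21, adjusted p = 0.11) without NICcA replicate 3. Its partner Asl, which splits argininosuccinate into arginine and fumarate, was at 34.8, 42.0 and 35.1 CPM in the wild type libraries and 41.4 and 37.7 CPM in the NICcA pair (a log2 fold change of 0.08, SE 0.13, edgeR adjusted p = 0.77). Asl therefore overlapped between the groups and did not stand out in NICcA replicate 2. The ratio of Ass1 to Asl in RPKM was 3.60, 4.07 and 3.73 in wild type, 9.89 in NICcA replicate 2 and 3.13 in NICcA replicate 3.

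Gch1, the first enzyme in making the tetrahydrobiopterin that Nos2 needs, was at 31.3, 48.7 and 32.8 CPM in the wild type libraries and 77.3 and 32.1 CPM in the NICcA libraries. The transcription factor Stat2 and the cytokine Tnf showed that arrangement too: Stat2 was at 39.3 to 58.9 CPM in the wild type libraries and 141 and 56.4 CPM in the NICcA libraries, and Tnf at 8.15 to 17.0 CPM against 93.6 and 15.2 CPM. These 3 genes were picked from the lists after their values were seen. Other genes of tetrahydrobiopterin synthesis and recycling did not share the arrangement. In NICcA replicate 2, Qdpr was the lowest of all libraries at 56.9 CPM. Pts was at 15.8 CPM there, within the wild type range of 14.7 to 17.5 CPM. Spr was the highest there by little, at 40.7 CPM against 38.9 CPM in wild type replicate 2. In wild type replicate 2, the library second in Nos2, Ass1, Gch1 and Tnf were also the highest of the wild type group. Stat2 was not, since its 52.0 CPM there was below the 58.9 CPM of wild type replicate 1. That standing was not particular to Ass1, Gch1 and Tnf. Asl, Arg2, Srm and Slc7a1 were also the highest of the wild type group in wild type replicate 2. The part of signalling through Stat2 and Tnf in the Nos2 and Ass1 values of NICcA replicate 2 was not tested.

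**Figure D2:**
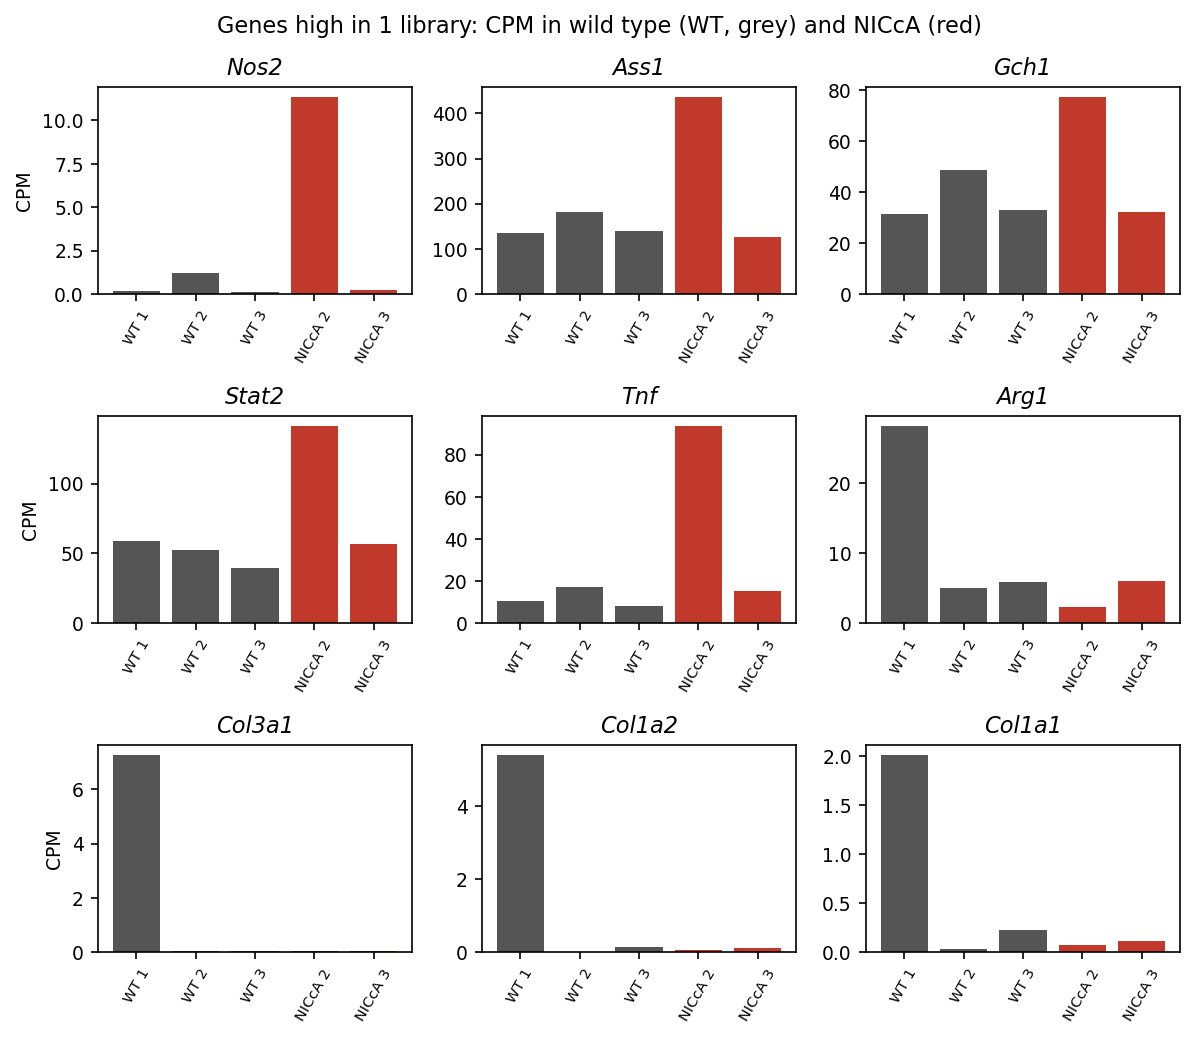
CPM of 9 genes in the 5 libraries, wild type (WT) in grey and NICcA in red, each panel with its own axis from 0. Nos2, Ass1, Gch1, Stat2 and Tnf are highest in NICcA replicate 2, and Arg1 and the collagen genes Col3a1, Col1a2 and Col1a1 are highest in wild type replicate 1.

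The sequence before the start of Ass1 is shown because Ass1 stood out in NICcA replicate 2. The RefSeq promoter table (GRCm38.p6) held 4 of the 10 members, Ass1, Odc1, Sat1 and Slc7a1. The 250 bases upstream of the Ass1 start, chr2:31470020-31470269 on the plus strand, hold 1 match to the E-box CACGTG (capitals), the letters bound by Myc, Max and related factors, beginning 36 bases before the start.

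Ass1: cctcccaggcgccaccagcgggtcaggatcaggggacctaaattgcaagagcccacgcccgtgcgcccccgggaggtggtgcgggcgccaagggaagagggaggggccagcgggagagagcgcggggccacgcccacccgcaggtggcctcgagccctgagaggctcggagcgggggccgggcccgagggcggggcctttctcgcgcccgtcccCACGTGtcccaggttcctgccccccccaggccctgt

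Of 32851 promoter windows of this length, 6.02% hold CACGTG. No match to the other motifs searched on both strands was found in the Ass1 window: GGNNNTTCC for NF-kB (15.7% of windows), GAAANNGAA for interferon-stimulated response elements (7.13%), TGGGAA for Rbpj (21.6%) and TGATGNAA for C/EBP-ATF sites (3.45%). Each motif was searched on its own, whether or not matches overlapped, and a match is only a description of the letters.

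Arginase showed a single-library pattern of its own, in wild type. Arg1, the cytosolic arginase, was at 28.1, 4.97 and 5.81 CPM in the wild type libraries 1, 2 and 3 and 2.24 and 6.04 CPM in the NICcA libraries 2 and 3, from counts of 1622, 364 and 383 against 150 and 436. Wild type replicate 1 was 4.66 times the next library, and NICcA replicate 3 lay above wild type replicates 2 and 3. The log2 fold change of -1.64 (SE 0.90, edgeR adjusted p = 0.42) moved to -0.38 (SE 0.46, adjusted p = 0.73) without wild type replicate 1.

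Only 3 of 9800 genes (0.0306%) were more than 4-fold above all other libraries in wild type replicate 1, and these were Arg1, Col3a1 and Col1a2. Col3a1 and Col1a2 encode fibrillar collagens made by fibroblasts and other stromal cells. Col3a1 was at 7.27 CPM there and at 0.0299 CPM or less elsewhere, and Col1a2 was at 5.40 CPM there and at 0.137 CPM or less elsewhere. Of the stromal markers, all 5 were in the table, and they summed to 16.02, 1.92 and 1.27 CPM in wild type and to 2.66 and 1.12 CPM in NICcA. The collagens carried that sum. The stromal marker Lum was also highest in wild type replicate 1, at 0.156 CPM from 9 counts, against 0.0304 CPM or less elsewhere. The stromal marker Pdgfrb, a growth factor receptor, did not stand out there. Its 1.18 CPM in wild type replicate 1 lay within the 0.865 to 2.50 CPM of the other libraries. The part of stromal cells in the Arg1 value of wild type replicate 1 was not tested. In bulk RNA, more cells of a type and more RNA per cell cannot be told apart.

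Arg2, the mitochondrial arginase, was at 7.72, 10.8 and 9.24 CPM in the wild type libraries and 6.57 and 6.00 CPM in the NICcA libraries. Both NICcA libraries lay below all wild type libraries, with a log2 fold change of -0.56 (SE 0.18, edgeR adjusted p = 0.32). Wild type replicate 1, the library highest in Arg1, was the lowest of its group in Arg2. Arg1 made up 77.8%, 30.7% and 37.6% of the summed RPKM of the arginases in wild type and 24.7% and 49.1% in NICcA, so the groups overlapped. The ratio of Arg1 to Nos2 in RPKM was 487, 11.3 and 129 in wild type, 0.534 in NICcA replicate 2 and 84.1 in NICcA replicate 3. Nos2 exceeded Arg1 in NICcA replicate 2 and in no other library.

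Each of the 3 polyamine enzymes separated the groups without overlap, as did 36.8% of all tested genes. Odc1, the first and most tightly regulated step, was at 45.3, 45.2 and 33.9 CPM in the wild type libraries and 64.8 and 54.3 CPM in the NICcA libraries. Both NICcA libraries lay above all wild type libraries, with a log2 fold change of 0.52 (SE 0.16, edgeR adjusted p = 0.31). Srm, spermidine synthase, was at 11.97, 16.4 and 13.4 CPM in the wild type libraries and 20.3 and 17.1 CPM in the NICcA pair (a log2 fold change of 0.42, SE 0.17, edgeR adjusted p = 0.34). The NICcA libraries were again the highest pair, though NICcA replicate 3 exceeded wild type replicate 2 by little. These differences are close in size to those of Actb and Gapdh given above, and whether they share a source was not tested.

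Sat1, the enzyme that sends polyamines to export or breakdown, had the most even wild type values, at 432, 421 and 423 CPM, against 292 and 338 CPM in NICcA. Its log2 fold change of -0.43 (SE 0.12) had an unadjusted p of 0.010 and an adjusted p of 0.29 in edgeR, the smallest of the 10. It was negative under all alternatives, between -0.54 and -0.32, and DESeq2 called it (adjusted p = 0.011) while the adjusted p ran up to 0.90 in the others. The ratio of Sat1 to Odc1 in RPKM was 21.8, 21.3 and 28.5 in wild type and 10.3 and 14.2 in NICcA. These ratios could not overlap, because Sat1 lay lower and Odc1 higher in both NICcA libraries, so they add no evidence. The ratio of Odc1 to Srm, enzymes of the same synthetic arm, was 1.97, 1.43 and 1.32 in wild type and 1.66 and 1.65 in NICcA, with overlap.

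**Figure D3:**
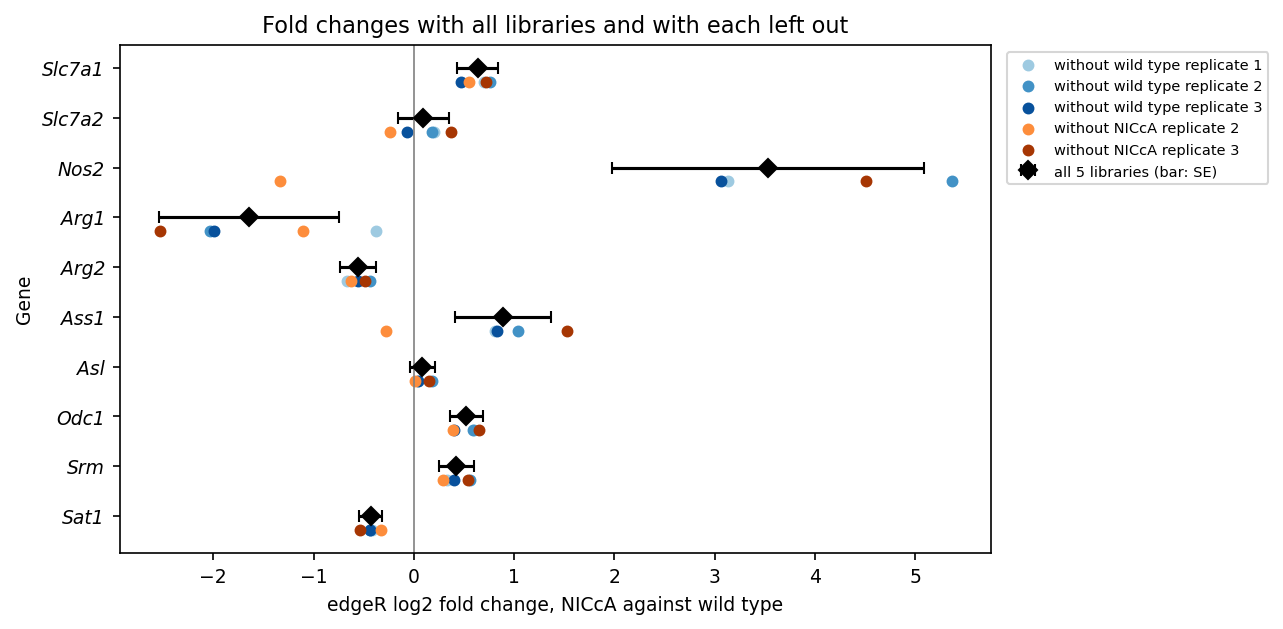
edgeR log2 fold change of each gene, NICcA against wild type, with all 5 libraries (black, bar of 1 SE) and with each library left out in turn (coloured points). Nos2 and Ass1 cross 0 without NICcA replicate 2, Arg1 moves to -0.38 without wild type replicate 1, and Odc1, Srm, Slc7a1, Sat1 and Arg2 keep their side of 0 in every such fit.

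Odc1 and Slc7a1, the members with a promoter entry that were higher in both NICcA libraries, are shown for comparison with Ass1. The Odc1 window is chr12:17544623-17544872 on the plus strand, and the Slc7a1 window, the more upstream of 2 starts in the table, is chr5:148399905-148400154 on the minus strand, written along the gene. Neither holds a match to the 5 motifs, nor does the window of Sat1, so no letters are in capitals.

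Odc1: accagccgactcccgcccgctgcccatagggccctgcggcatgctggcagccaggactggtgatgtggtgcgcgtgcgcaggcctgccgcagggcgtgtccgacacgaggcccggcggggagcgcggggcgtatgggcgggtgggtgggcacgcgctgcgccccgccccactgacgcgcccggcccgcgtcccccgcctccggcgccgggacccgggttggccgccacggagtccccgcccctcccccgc

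Slc7a1: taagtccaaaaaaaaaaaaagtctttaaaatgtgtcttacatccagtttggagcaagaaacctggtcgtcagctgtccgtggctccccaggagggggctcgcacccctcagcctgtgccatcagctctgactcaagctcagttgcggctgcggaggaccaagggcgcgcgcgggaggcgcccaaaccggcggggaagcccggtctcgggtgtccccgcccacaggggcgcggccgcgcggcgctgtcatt

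The Odc1 window is 80% G and C, that of Slc7a1 62.4% and that of Ass1 75.6%. The E-boxes through which Myc is known to act on Odc1 lie within the gene, outside this window, so the missing match says nothing about that factor.

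In the counts over related genes that follow, the shares over all tested genes were 14.5% at an unadjusted p below 0.05 in edgeR and 4.03% called by DESeq2. Among 8 regulators tied to Odc1 and the polyamines, Myc, which drives Odc1 transcription, was at 8.19, 8.68 and 8.18 CPM in the wild type libraries and 13.5 and 11.8 CPM in the NICcA libraries. The groups did not overlap, and the log2 fold change was 0.60 (with an SE of 0.13, adjusted p = 0.27 with edgeR and 0.0074 with DESeq2). Mxi1, a Max partner that opposes Myc, was at 47.3 to 52.8 CPM in the wild type libraries and 37.5 and 45.0 CPM in the NICcA pair (a log2 fold change of -0.26, SE 0.12, edgeR adjusted p = 0.37). Of the 8, 0 passed edgeR's adjustment, 1 had an unadjusted p below 0.05 and DESeq2 called 1 higher; the median log2 fold change was 0.08.

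In the other 14 tested genes of polyamine synthesis and removal the median log2 fold change was -0.02, with 7 above and 7 below 0. None passed edgeR's adjustment, 2 had an unadjusted p below 0.05 and DESeq2 called 0. Those 2 were Amd1 and Amd2, near-identical copies of the gene for S-adenosylmethionine decarboxylase, which supplies the aminopropyl group that Srm uses. Their counts almost coincided, so they are 1 measurement: Amd1 was at 96.7, 86.6 and 88.9 CPM in the wild type libraries and 68.6 and 80.1 CPM in the NICcA pair (a log2 fold change of -0.29, SE 0.11, edgeR adjusted p = 0.34). Amd1 thus lay lower in both NICcA libraries where Odc1 and Srm lay higher. Oaz1, the antizyme that inactivates Odc1 protein, was at 414 to 469 CPM in the wild type libraries and 501 and 443 CPM in the NICcA libraries, with overlap. Eif5a, the translation factor modified with spermidine, was at 177 to 183 CPM against 231 and 191 CPM.

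Ornithine and the urea cycle were covered by 11 tested genes, with a median log2 fold change of 0.19. None passed edgeR's adjustment, 1 had an unadjusted p below 0.05 and DESeq2 called 1 higher. That gene was Aldh18a1, which makes the precursor of ornithine and proline from glutamate, at 12.8, 11.9 and 7.79 CPM in the wild type libraries and 21.4 and 17.2 CPM in the NICcA pair (a log2 fold change of 0.84 with an SE of 0.24, at an adjusted p of 0.29 with edgeR and 0.047 with DESeq2). Pycrl, a reductase that completes proline synthesis, had a log2 fold change of 0.23 (SE 0.12, edgeR adjusted p = 0.41). Oat, which links ornithine to proline and glutamate, was at 84.8 to 86.8 CPM in the wild type libraries and 78.0 and 79.1 CPM in the NICcA libraries. Cps1 and Otc, which feed the hepatic urea cycle, were at 0.0416 CPM or less in every library and did not pass the filter.

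The 9 tested genes of the nitric oxide synthase family and its cofactor had a median log2 fold change of 0.21. None passed edgeR's adjustment, 0 had an unadjusted p below 0.05 and DESeq2 called 0. Nos1 and Nos3, the neuronal and endothelial synthases, were at 0.228 CPM or less in every library. Nosip, which binds nitric oxide synthases, had a log2 fold change of 0.21 (SE 0.11, edgeR adjusted p = 0.40). The 8 tested genes that make or remove methylarginines, which inhibit nitric oxide synthases, had a median of 0.11. None passed edgeR's adjustment, 1 had an unadjusted p below 0.05 and DESeq2 called 0. Prmt1, the main asymmetric methyltransferase, was at 9.26 to 12.1 CPM in the wild type libraries and 14.9 and 14.0 CPM in the NICcA pair (a log2 fold change of 0.40, SE 0.15, edgeR adjusted p = 0.34). Prmt7 had a log2 fold change of 0.26 (SE 0.14, edgeR adjusted p = 0.41).

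Other amino acid and polyamine carriers, 16 tested genes, had a median log2 fold change of -0.11. None passed edgeR's adjustment, 3 had an unadjusted p below 0.05 and DESeq2 called 0. Slc7a5, the large neutral amino acid exchanger, was at 14.5, 10.8 and 3.43 CPM in the wild type libraries and 50.2 and 28.3 CPM in the NICcA pair (a log2 fold change of 2.04, SE 0.57, edgeR adjusted p = 0.29). Its groups did not overlap. Its libraries ranked as on the first principal component of all tested rows (55.9% of the variance), from wild type replicate 3 at -66.2 to NICcA replicate 2 at 61.9. That order was not particular to Slc7a5: the libraries ranked the same way in Aldh18a1 and Il4ra. They also did in Odc1, where wild type replicates 1 and 2 were nearly tied at 45.3 and 45.2 CPM. How many of all genes share the order was not counted. Slc3a2, the heavy-chain partner of Slc7a5, was at 90.9 to 110 CPM against 138 and 102 CPM. Slc22a4, a carrier of the antioxidant ergothioneine, had a log2 fold change of -0.58 (SE 0.21, edgeR adjusted p = 0.33). Atp13a3, a polyamine transporter, was at 194 to 246 CPM in the wild type libraries and 120 and 174 CPM in the NICcA libraries, without overlap (log2 fold change -0.53, SE 0.20, edgeR adjusted p = 0.33).

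Among 21 tested inducers of Nos2 and Arg1, the median log2 fold change was 0.02. None passed edgeR's adjustment, 7 had an unadjusted p below 0.05 (14.5% of all genes did), 4 higher and 3 lower, and DESeq2 called 1 lower (it called 4.03% of all genes). That gene was Pparg, a nuclear receptor of alternative activation, at 35.6, 44.8 and 38.4 CPM in the wild type libraries and 23.1 and 24.4 CPM in the NICcA pair (a log2 fold change of -0.73 with an SE of 0.13, at an adjusted p of 0.27 with edgeR and 7.4e-04 with DESeq2). Il4ra, the interleukin-4 receptor chain that activates Stat6, was at 147, 139 and 111 CPM in the wild type libraries and 216 and 171 CPM in the NICcA pair (a log2 fold change of 0.55, SE 0.17, edgeR adjusted p = 0.30). Pparg and Il4ra, both upstream of Arg1 in textbook accounts, thus lay on opposite sides in NICcA, and in wild type replicate 1 neither lay outside the range of the other 4 libraries. Ifngr1, the interferon gamma receptor chain, was at 115 to 143 CPM in the wild type libraries and 82.7 and 110 CPM in the NICcA libraries. Relative to the wild type mean, the list's median stood at 0.22 on the log2 scale for NICcA replicate 2 and -0.08 for NICcA replicate 3, with wild type values of -0.07 to 0.05. This was not particular to the inducers. In the same replicates the Odc1 regulators stood at 0.22 and -0.07 and the nitric oxide synthase list at 0.23 and 0.16. The carriers went the other way in NICcA replicate 2, at -0.24, with -0.06 in NICcA replicate 3.

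**Figure D4:**
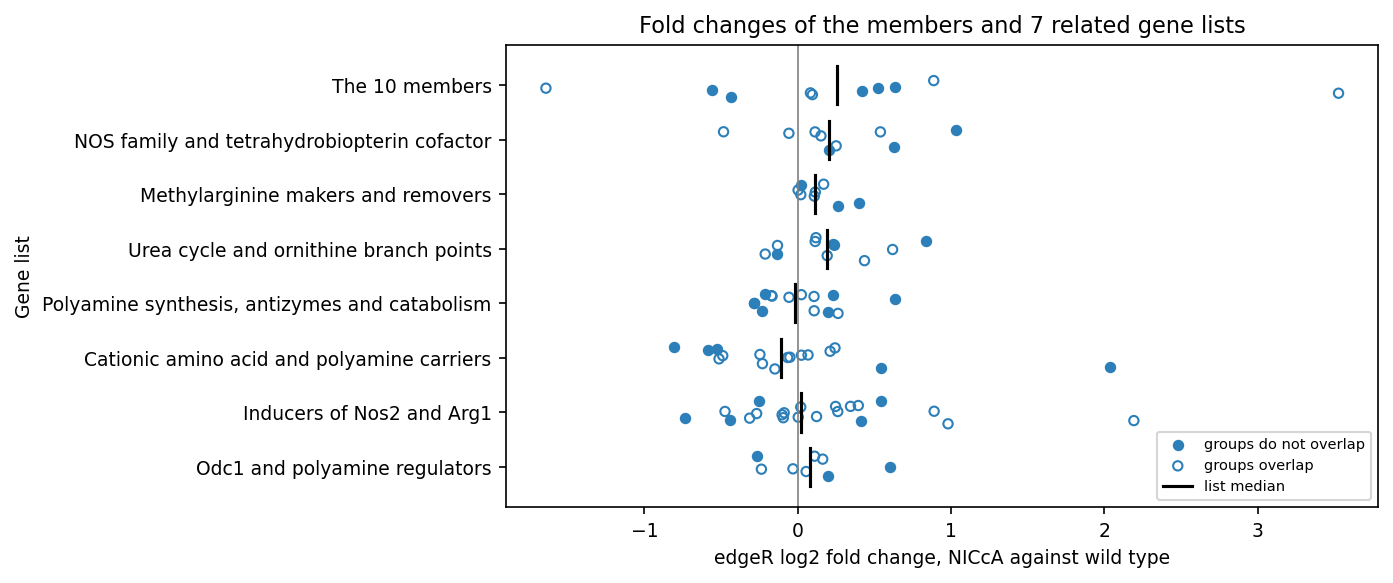
edgeR log2 fold change of the 10 members and of the tested genes of 7 related lists, 1 point per gene, filled where both NICcA libraries lie above, or both below, all wild type libraries, with the list median as a black line. Medians lie between -0.11 and 0.26, and Nos2, Tnf and Slc7a5 are the points above 2.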

How the data were processed

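Raw read counts and RPKM per RefSeq transcript were deposited by the authors for 3 wild type and 2 NICcA libraries, per the file headers. Bowtie 0.12.2 and mouse build mm8 appear, with no role, per the submitters' processing notes. The sources at hand do not give the counting, annotation and strand setting, and gene coordinates are not printed because the reference at hand is of another build. Promoter windows are from RefSeq (GRCm38.p6).

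The count test was that of edgeR 4.0.16 under R 4.3.3 (filterByExpr, TMM factors, quasi-likelihood F-test, genotype as the only term), with Benjamini-Hochberg adjustment over 18267 rows at 0.05. The SE is |log2 fold change| over the root of F. CPM are counts per 1000000 of the TMM-scaled library. The common biological coefficient of variation was 22.5%. The fit was tested on simulated data. The planted changes were larger than those of the members that separated the groups, so the test says nothing about detecting those. Alternatives used DESeq2 1.42.0, limma 3.58.1 (voom, or log2(RPKM + 1) and log2(RPKM + 0.1) of the deposited RPKM), other scaling and filters, 1 row per gene, a replicate block, and each library left out.

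Members and lists were chosen with earlier results of these data known. Always named were the 10 members, Notch1, Hes1, Nrarp, Actb and Gapdh. Of each list of related genes, up to 4 members past the threshold were named, or else the 2 with the smallest p; a gene that this rule would name is not reported here. Other genes were named after their values were seen.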

Additional observations from a re-analysis of the deposited data

How the results depend on the processing

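Over 15 alternatives for each of the 10 members (150 values), 145 kept their direction and their side of the threshold, 4 reversed and 1, Sat1 with DESeq2, passed it (log2 fold change -0.43, adjusted p = 0.011). The reversals were those without 1 library given for Nos2, Ass1 and Slc7a2: leaving out each library gave -1.34 to 5.36 for Nos2, -0.27 to 1.52 for Ass1 and -0.24 to 0.37 for Slc7a2. The number of members called was 0 in all settings except DESeq2, with 1. Over all rows, edgeR called 4, against 12 with no filter on low counts, 747 with DESeq2, 2 with limma-voom, 2 with limma on log2(RPKM + 1), and 0 to 54 without 1 library; the cause was not tested. Members at an unadjusted p below 0.05 in edgeR numbered 4 or 5 without 1 wild type library, where 10.7% to 17.3% of all genes did. With the replicate block, which compares only the libraries numbered 2 and 3, 0 rows were called. Deviations from the group means correlated at 0.20 for the libraries numbered 2 and at 0.17 for those numbered 3. With 2 NICcA libraries, the deviations of one mirror those of the other. The 2 correlations are therefore not independent and cannot decide whether libraries were paired, and the labels give only a shared number. The median of all genes was 0.11 on the log2 scale both without scaling factors and with limma on log2(RPKM + 0.1), and no member changed direction in either. Where NICcA was left with 1 library, that library was assumed to vary like the wild type. Counts of 8 to 14 limit Nos2 in 3 libraries.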
